A study of Mus musculus with 18 samples.

Results

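The genes described here are 37 genes for plasma proteins of blood clotting and complement, chosen by name from tables that listed 17180 genes in all. They were read in mouse liver after 2/3 partial hepatectomy, in which the larger lobes are removed and the remaining lobes grow back. Livers of C57BL/6 mice were collected at 0.5, 2, 4, 24, 48, 72, 120 and 168 h after partial hepatectomy, and after a sham operation whose time of collection the labels do not give. Each of the 9 groups held 2 libraries (n = 2 in every group below), and each library was poly(A) RNA pooled from 3 mice, so p-values measure the spread between pools, not between mice. Sex and age of the mice are not in the labels. By role the 37 genes were 3 fibrinogen chains, 10 clotting factors and contact proteins, 7 inhibitors and fibrinolysis proteins, 8 genes for the start and amplification of complement, 6 terminal complement genes and 3 complement regulators.

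The clotting cascade is a chain of proteases that ends in thrombin, which turns soluble fibrinogen into the fibrin mesh of a clot. Inhibitors such as antithrombin and protein C restrain it, and plasmin dissolves the mesh. Complement is a second protease cascade of plasma: mannose-binding lectin, antibody or spontaneous turnover starts it, C3 is the hub on which the starting routes meet, and the terminal components build the membrane attack pore. Hepatocytes make most of these proteins, and fibrinogen, C3 and several others belong to the acute phase proteins whose transcripts are known to follow interleukin-6 through STAT and C/EBP transcription factors.

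The 3 fibrinogen genes lie side by side on chromosome 3 (GRCm38), Fgg at 83007724 to 83015056, Fga at 83026153 to 83033627 and Fgb at 83042246 to 83049863, with no protein-coding gene between neighbours. Their promoters are shown because these 3 genes had the largest rises of the 37, and those of Mbl1 and Mbl2 because these paralogs took different courses. Each line gives the 250 bases before a start in RefSeq's promoter list (GRCm38.p6). For some genes, Mbl2, F9 and C8a among them, that start lies inside the RefSeq gene. The Mbl2 gene starts at 30232906, within the window shown. Capitals mark matches, on either strand, to TTCNNNGAA (STAT), CTGGGA (type 2 interleukin-6 response), TTNNGNAAT (C/EBP) or GTTAATNAT (HNF1).
Fga (chr3:83025903-83026152, plus strand): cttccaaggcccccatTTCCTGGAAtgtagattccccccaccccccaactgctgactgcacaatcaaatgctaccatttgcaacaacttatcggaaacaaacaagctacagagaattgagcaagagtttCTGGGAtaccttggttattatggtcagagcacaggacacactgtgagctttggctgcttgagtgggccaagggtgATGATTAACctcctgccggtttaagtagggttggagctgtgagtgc
Fgb (chr3:83049864-83050113, minus strand): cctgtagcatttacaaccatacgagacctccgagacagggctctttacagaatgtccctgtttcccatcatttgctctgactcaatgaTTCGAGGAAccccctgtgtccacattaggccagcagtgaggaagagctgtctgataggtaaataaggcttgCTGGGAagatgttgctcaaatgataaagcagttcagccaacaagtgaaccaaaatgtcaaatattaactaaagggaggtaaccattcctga
Fgg (chr3:83007474-83007723, plus strand): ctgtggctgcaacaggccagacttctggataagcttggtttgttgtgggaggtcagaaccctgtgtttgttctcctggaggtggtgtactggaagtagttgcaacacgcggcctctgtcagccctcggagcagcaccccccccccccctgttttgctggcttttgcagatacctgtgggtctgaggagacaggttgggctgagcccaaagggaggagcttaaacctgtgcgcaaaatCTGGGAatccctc
Mbl1 (chr14:41151206-41151455, plus strand): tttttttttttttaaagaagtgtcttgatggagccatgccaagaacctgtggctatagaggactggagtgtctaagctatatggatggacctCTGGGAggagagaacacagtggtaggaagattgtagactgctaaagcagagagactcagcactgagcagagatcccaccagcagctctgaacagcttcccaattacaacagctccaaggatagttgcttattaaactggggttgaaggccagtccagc
Mbl2 (chr19:30232678-30232927, plus strand): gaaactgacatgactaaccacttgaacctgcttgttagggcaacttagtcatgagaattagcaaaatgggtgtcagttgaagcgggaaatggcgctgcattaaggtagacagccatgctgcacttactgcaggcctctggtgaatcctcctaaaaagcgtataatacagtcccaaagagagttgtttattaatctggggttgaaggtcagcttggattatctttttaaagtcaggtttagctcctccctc
No matches overlapped in these windows (in those of F9 and Masp2 the STAT letters hold CTGGGA on the other strand). CTGGGA occurred in all 3 fibrinogen windows, at positions -121 to -116 in Fga, -91 to -86 in Fgb and -13 to -8 in Fgg, counted back from the start. The STAT letters occurred in Fga (TTCCTGGAA) and Fgb (TTCGAGGAA) and not in the Fgg window, and the window of Mbl2 held no match. A window was found for 29 of the 37 genes in RefSeq's promoter list: CTGGGA was found in 41.4% of these, against 29.8% of all 27025 genes with one, the STAT letters in 20.7% against 8.13%, the C/EBP letters in 17.2% against 11.7% and the HNF1 letters in 13.8% against 0.866%. CAAAGTCCA (HNF4) was found in 0 of these 29 genes and in 0.451% of all genes. These are counts of letters, not of binding, and no test was made on them. Kng1, Proc, Plg, C2, C4b, Cfb, Masp1 and Cfi were not matched.

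All 37 genes were listed in all 18 tables, with a lowest count of 178 reads (C8g at 4 h), and all were tested. Library totals ran from 7.78 M to 9.16 M reads. The tables of sham replicate 2 and 0.5 h replicate 1 end early, leaving 1.14% and 4.73% of reads unlisted, so the test covered the 4906 genes listed in both. Levels below are CPM, a gene's reads scaled by the library total, after TMM scaling, and changes are log2 fold changes with SE from edgeR's quasi-likelihood test, called at a Benjamini-Hochberg adjusted p under 0.05 over the 4906 genes. Against sham, scaling by library totals alone put the median change of all genes at -0.17, -0.37, 0.11 and 0.15 for 2, 4, 24 and 48 h, so changes are relative to that median. The 6 hepatocyte markers Alb, Ttr, Apoa1, Tf, Cps1 and Ass1 summed to 129573 CPM in the complete sham table, to 95538 and 99802 CPM at 24 h and to between 119389 and 182245 CPM at the other times. Sums of cell type markers, here and below, are CPM by library totals alone, without TMM scaling. The sources used here do not say whether reads were counted by strand. Counts of Fgg, F5, Serpinc1, Plg, Masp2 and Hc, which share exon sequence with an annotated gene on the opposite strand, are therefore less certain. Klkb1, C2 and Cfb share exon sequence with a gene on their own strand, so their counts are less certain whether or not strand was used. For C2 and Cfb it is the same gene, Gm20547, and C2 also overlaps Zbtb12 on the opposite strand. The same holds for Kng1 and C4b, which have the near-identical copies Kng2 and C4a. In bulk liver RNA, fewer cells of a type and less RNA per cell cannot be told apart.

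Over the 9 groups, 34 of the 37 genes differed, where 68.6% of all genes tested did. F5, F13b and C3 did not pass that joint test. The highest group mean fell at 4 h for 20 genes and in sham for 7. The lowest fell at 48 h for 17, at 24 h for 10 and at 72 h for 7. These means are after TMM scaling, and the same count was not made over all genes. By totals alone the median change of all genes against sham was -0.37 at 4 h and 0.15 at 48 h. Together the 37 genes took 12.4% and 10.7% of the reads of the 4 h libraries, against 6.13% and 6.39% in sham.

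**Figure D1:**
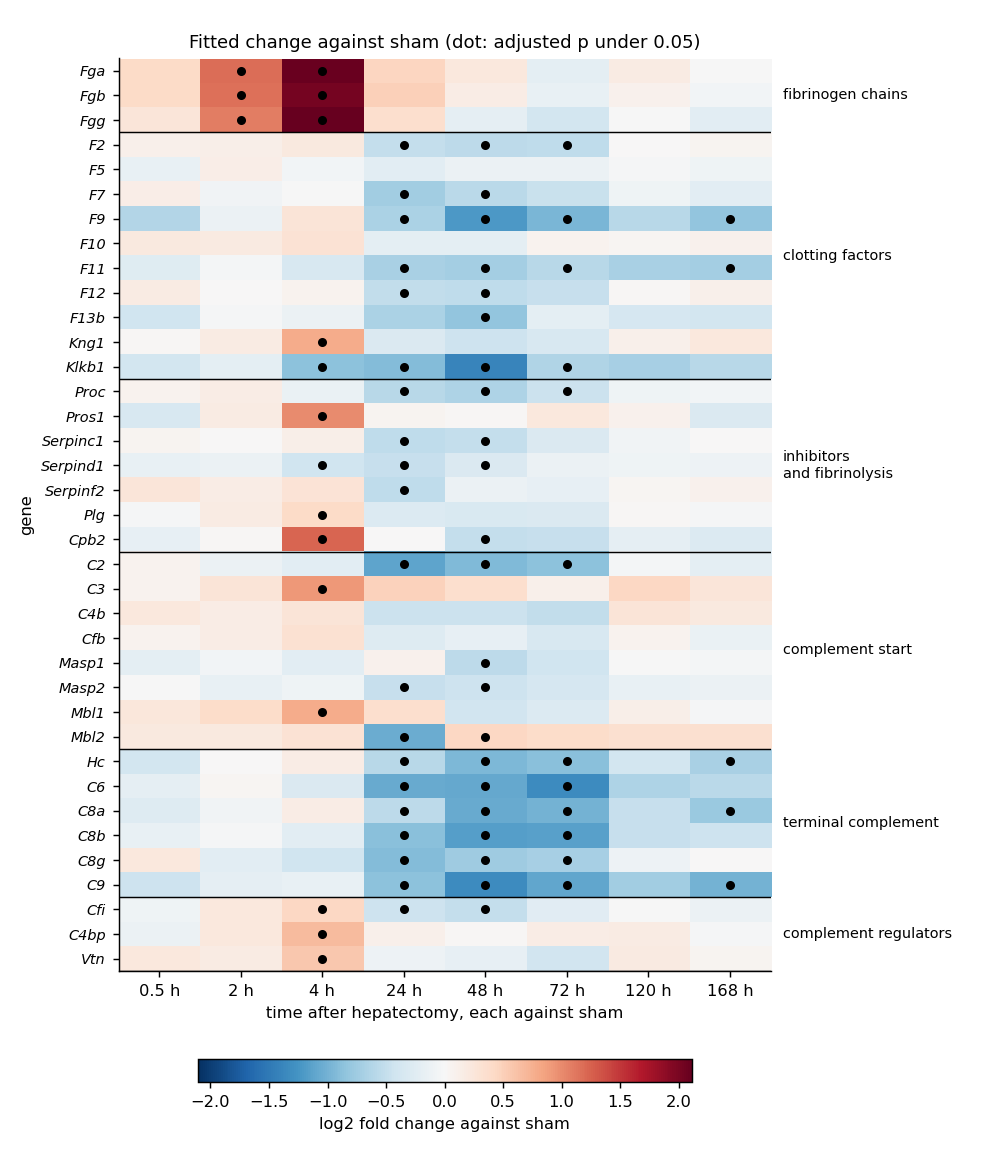
Fitted log2 fold change of each of the 37 genes (rows, grouped by role) at 8 times after hepatectomy (columns), each against the same 2 sham libraries; colour runs from blue (lower) to red (higher) and a dot marks an adjusted p under 0.05. The fibrinogen rows are red at 2 and 4 h, and all 6 terminal complement rows carry dots at 24, 48 and 72 h.

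Fibrinogen is 1 protein built from 3 chains, and the genes of all 3 rose at 2 h and at 4 h. Fga had 8285 and 8411 CPM in sham, 12788 and 9419 at 0.5 h, 17653 and 20128 at 2 h and 39337 and 31275 at 4 h; at 24 h it had 10043 and 13001 CPM, with 6916 and 12638 at 48 h, 7958 and 6489 at 72 h, 8094 and 10766 at 120 h and 7871 and 8681 at 168 h. Fgb, the chain gene with the highest sham level per length (5157 ± 16.2 RPKM, against 3477 ± 61.7 for Fgg and 2505 ± 30.2 for Fga), followed the same course. Fgb had 7880.1 and 8174 CPM in sham, 12456 and 8774 at 0.5 h, 17697 and 18509 at 2 h and 35324 and 29986 at 4 h; at 24 h it had 10565 and 12349 CPM, with 6387 and 11502 at 48 h, 7611 and 6840.0 at 72 h, 7626 and 9449.8 at 120 h and 7307 and 8101 at 168 h. Fgg had 5257 and 5294 CPM in sham, 6979.9 and 5627 at 0.5 h, 11238 and 11007 at 2 h and 23978 and 21658 at 4 h; at 24 h it had 6218 and 7275 CPM, with 3425 and 5817 at 48 h, 4434 and 3596 at 72 h, 4559.9 and 5888 at 120 h and 4428 and 4616 at 168 h. In all 3 genes both 4 h libraries lay above every library of every other group. The sham libraries were close to each other, whereas the 48 h libraries stood apart, with replicate 2 above replicate 1 for all 3 genes.

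At 4 h the fold changes were 4.23-fold for Fga (log2 2.08 ± 0.27, edgeR adjusted p = 7.9e-05), 4.07-fold for Fgb (log2 2.02 ± 0.25, edgeR adjusted p = 4.94e-05) and 4.32-fold for Fgg (log2 2.11 ± 0.23, edgeR adjusted p = 1.78e-05). At 2 h they were 2.26-, 2.26- and 2.11-fold (adjusted p = 0.014, adjusted p = 0.00903 and adjusted p = 0.00866). These were the only calls among the 37 genes at 2 h, 3 higher and 0 lower, where 4.61% of all genes were called higher and 4.16% lower. The 2 h calls did not hold without sham replicate 1 or without sham replicate 2 (0 of 3 each), and Fgg alone held without 2 h replicate 2. Those at 4 h held under all alternatives tried and without each library in turn. From 24 h on no fibrinogen gene was called against sham, and between 24 h and 4 h all 3 were lower (log2 -1.62 for Fga, -1.51 for Fgb and -1.76 for Fgg). As a share of reads the 3 genes took 7.55% and 6.58% at 4 h, 2.94% and 3.58% at 24 h and 1.93% and 3.31% at 48 h, against 2.20% and 2.18% in sham.

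Fga and Fgb kept nearly fixed proportions while their level moved, and the ratio of Fgg to Fgb ranged 1.43-fold over the 18 libraries. The ratio of Fga to Fgb in RPKM lay between 0.443 and 0.532 over the 18 libraries, a range of 1.20-fold. That of Fgg to Fgb was wider, 0.519 to 0.741, highest at 4 h (0.696 and 0.741) and lowest at 48 h (0.550 and 0.519), against 0.684 and 0.664 in sham. At 48 h the library with more fibrinogen, replicate 2, also had more of 5 neutrophil and monocyte marker transcripts. They summed to 54.1 CPM in replicate 2 and 14.4 in replicate 1, and none of them was at 0 in both libraries. The same markers summed to 84.7 and 41.2 CPM at 4 h, 52.6 CPM in replicate 2 and 7.83 in replicate 1 at 24 h, and 11.8 CPM in the complete sham table. At 120 and 168 h replicate 2 also had more of both. At 72 h replicate 2 had more of the markers (12.1 CPM, against 6.01 in replicate 1) but less of each fibrinogen chain. At 2 h replicate 1 had more of the markers (49.0 CPM, against 32.4 in replicate 2) and of Fgg, but less Fga and Fgb. Their part in the fibrinogen values was not tested.

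**Figure D2:**
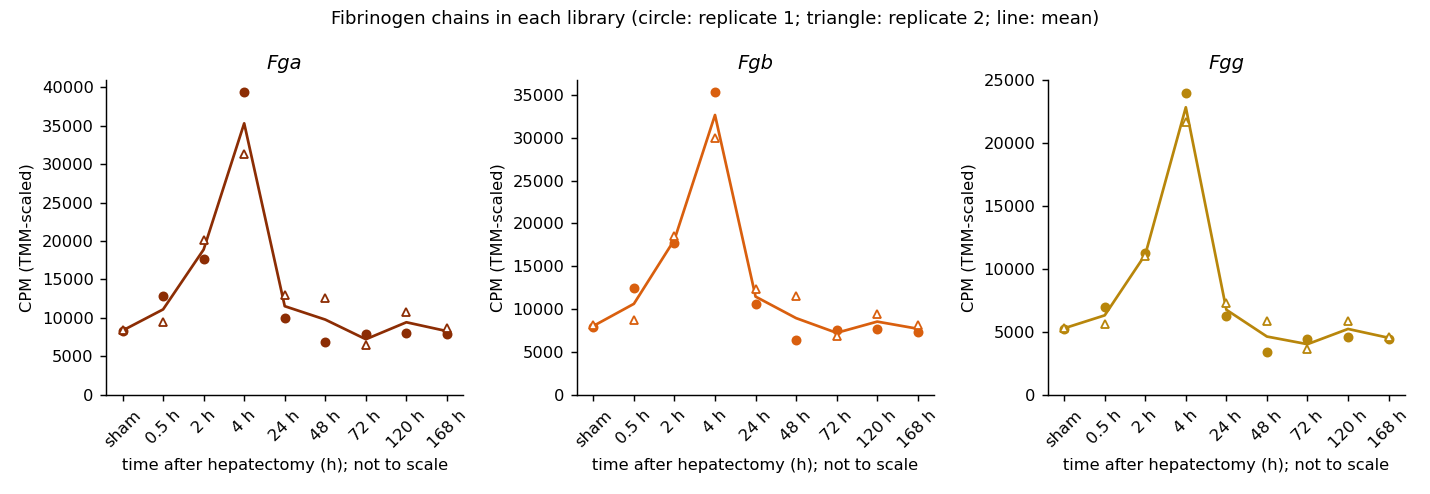
TMM-scaled CPM of Fga, Fgb and Fgg (1 panel each) in every library, by group from sham to 168 h; symbols are single libraries and the line joins the means of 2. The 4 h libraries reach 39337 and 31275 CPM for Fga, and the 48 h libraries lie apart at 6916 and 12638 CPM.

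Of the 10 clotting factor and contact genes, Kng1 rose and Klkb1 fell at 4 h, and 8 were not called. At 4 h 12 of the 37 genes rose and 2 fell, where 16.9% of all genes were called higher and 18.8% lower. Later the clotting genes went down: 6 of 10 were lower at 24 h, 7 of 10 at 48 h, 4 of 10 at 72 h, 0 of 10 at 120 h and 2 of 10 at 168 h, with none higher. Of the whole set of 37, 20 fell and 0 rose at 24 h, where 9.46% of all genes fell and 7.87% rose. At 48 h 21 fell and 1 rose, where 18.9% of all genes fell and 18% rose. At 72 h 12 fell and 0 rose, with 6.42% and 6.16% of all genes, and at 168 h 5 fell and 0 rose, with 3.34% and 2.41%.

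F9 encodes factor IX, the protease deficient in haemophilia B. F9 had 296 and 271 CPM in sham, 175 and 197 at 0.5 h, 319.8 and 202 at 2 h and 309 and 374 at 4 h; at 24 h it had 214 and 142 CPM, with 119 and 125 at 48 h, 157 and 134 at 72 h, 197 and 180.1 at 120 h and 157 and 161 at 168 h. Both libraries lay below both sham libraries at 0.5, 24, 48, 72, 120 and 168 h, and above them at 4 h. The change was log2 -1.21 ± 0.21, edgeR adjusted p = 0.001 at 48 h and log2 -0.84 ± 0.21, edgeR adjusted p = 0.0376 at 168 h. Klkb1, which encodes plasma prekallikrein of the contact system, was called lower from 4 to 72 h. Klkb1 had 251 and 239 CPM in sham, 180.2 and 197 at 0.5 h, 215 and 213 at 2 h and 114 and 154 at 4 h; at 24 h it had 159.8 and 98.9 CPM, with 95.8 and 91.4 at 48 h, 161 and 155 at 72 h, 166 and 136 at 120 h and 176 and 152 at 168 h. All libraries after hepatectomy lay below both sham libraries; at 4 h the change was called (log2 -0.87 ± 0.19, edgeR adjusted p = 0.00354), and at 48 h the change was log2 -1.39 ± 0.20, edgeR adjusted p = 0.000313. The 4 h call on Klkb1 was lost without 4 h replicate 1, and its 72 h call was lost under 5 of 10 alternatives and kept in 6 of 18 fits without 1 library.

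Kng1 encodes kininogen, the contact cofactor from which kallikrein releases bradykinin. Kng1 had 2296 and 2879.6 CPM in sham, 2687 and 2602 at 0.5 h, 2753 and 3053 at 2 h and 4905 and 4034 at 4 h; at 24 h it had 1760.2 and 2403 CPM, with 1741 and 2106 at 48 h, 2340.4 and 1787 at 72 h, 2767 and 2789.6 at 120 h and 2980.4 and 3054 at 168 h. It was 1.73-fold higher at 4 h (log2 0.79 ± 0.19, edgeR adjusted p = 0.00508), a call lost without sham replicate 1 and under scaling by totals alone. At 24 h it had 2082 ± 454 CPM and was lower than at 4 h (log2 -1.10).

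F2, the prothrombin gene, averaged 1126 ± 97.7, 1084 ± 24.7 and 1111 ± 135 CPM at 24, 48 and 72 h, against 1599 ± 98.3 in sham (log2 -0.51, -0.56 and -0.53, all called). F7, whose protein starts clotting with tissue factor, had 51.8 ± 9.06 CPM at 24 h, against 85.8 ± 8.54 in sham (log2 -0.73 ± 0.16, edgeR adjusted p = 0.00753). F11 and F12, which encode proteases of the contact route, fell at 24 h (log2 -0.69 and -0.52) and 48 h (log2 -0.72 and -0.53). The 24 h call on F12 was lost under 5 of 10 alternatives and kept in 9 of 18 fits without 1 library. F11 was also called lower at 72 h, a call kept under 4 of 10 alternatives and in 6 of 18 fits without 1 library, and at 168 h (64.7 ± 0.637 CPM at 168 h, against 106 ± 16.6 in sham). F13b, the gene of the carrier subunit of factor XIII, was called at 48 h alone (117 ± 6.26 CPM, against 209 ± 23.7 in sham, adjusted p = 0.0146). F5, the cofactor gene of factor X, and F10 were called against sham at no time. Their group means stayed between 561 and 725 CPM for F5 and between 501 and 714 CPM for F10.

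Among the 7 inhibitor and fibrinolysis genes, Cpb2, Pros1 and Plg rose and Serpind1 fell at 4 h. At 24 h 4 were lower, at 48 h 4, at 72 h 1 and at 120 and 168 h 0, with none higher. Of all genes tested, 9.46% were lower at 24 h, 18.9% at 48 h and 6.42% at 72 h. Cpb2 encodes the carboxypeptidase TAFI, which trims fibrin so that plasmin removes it more slowly. Cpb2 had 630.0 and 684 CPM in sham, 625 and 536 at 0.5 h, 736 and 598 at 2 h and 1592 and 1471 at 4 h; at 24 h it had 592 and 721 CPM, with 419 and 505 at 48 h, 528 and 413 at 72 h, 568 and 583 at 120 h and 518 and 554 at 168 h. Both 4 h libraries lay above all others, and the rise was 2.33-fold (log2 1.22 ± 0.16, edgeR adjusted p = 8.43e-05). At 48 h the change was log2 -0.51 ± 0.16, edgeR adjusted p = 0.0242. That 48 h call was kept under 6 of 10 alternatives and in 15 of 18 fits without 1 library.

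Pros1 encodes protein S, the cofactor of protein C, and was the lowest of the 37 genes per length in sham, at 22.5 ± 1.14 RPKM. Pros1 had 74.2 and 71.3 CPM in sham, 54.1 and 61.3 at 0.5 h, 85.5 and 79.9 at 2 h and 147 and 143 at 4 h; at 24 h it had 76.7 and 74.3 CPM, with 63.5 and 83.5 at 48 h, 80.1 and 90.1 at 72 h, 72.8 and 82.3 at 120 h and 61.3 and 56.3 at 168 h. Its 4 h libraries were the highest of the 18 and close to each other (log2 0.99 ± 0.13, edgeR adjusted p = 9.56e-05). Proc, the protein C gene, did not share that rise: it had 389 ± 4.12 CPM at 4 h, against 428 ± 0.380 in sham (adjusted p = 0.305), and fell at 24, 48 and 72 h (log2 -0.58, -0.65 and -0.46). The RPKM ratio of Proc to Pros1 was 5.21 and 5.29 in the 4 h libraries, against 11.3 and 11.8 in the sham libraries.

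Serpinc1, the antithrombin gene, had 1503 ± 192 CPM at 24 h and 1529 ± 53.2 at 48 h, against 2182 ± 69.1 in sham (log2 -0.54 and -0.51). Each of these calls on Serpinc1 was kept in 15 of 18 fits without 1 library. Serpind1, the gene of heparin cofactor II, was lower at 4, 24 and 48 h (log2 -0.42, -0.48 and -0.30), but the 48 h call was lost under 7 of 10 alternatives and kept in 9 of 18 fits without 1 library. Serpinf2, whose product inhibits plasmin, fell at 24 h alone (633 ± 94.8 CPM, against 919.6 ± 49.8 in sham, adjusted p = 0.0405), a call lost under 5 of 10 alternatives and kept in 11 of 18 fits without 1 library. Plg, the plasminogen gene, was 1.32-fold higher at 4 h (adjusted p = 0.0463). That call was lost under 6 of 10 alternatives and kept in 7 of 18 fits without 1 library.

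The 8 genes for the start of complement split. C3 and Mbl1 rose at 4 h, C2, Masp2 and Mbl2 fell at 24 h, and C2, Masp1 and Masp2 fell while Mbl2 rose at 48 h. At 72 h C2 was lower, and at 120 and 168 h none of the 8 was called. Mbl1 and Mbl2 encode the mannose-binding lectins A and C of the mouse, which recognise sugars on microbes and bring the proteases MASP-1 and MASP-2 to them. Mbl1 had 199 and 205 CPM in sham, 260.1 and 219 at 0.5 h, 269 and 259 at 2 h and 358 and 344 at 4 h; at 24 h it had 274 and 245 CPM, with 134 and 174 at 48 h, 185 and 146 at 72 h, 215 and 223 at 120 h and 185 and 214 at 168 h. Mbl2 had 282 and 329.7 CPM in sham, 327 and 378 at 0.5 h, 381 and 323 at 2 h and 362 and 392 at 4 h; at 24 h it had 153 and 142 CPM, with 423 and 401 at 48 h, 406 and 393 at 72 h, 384 and 393 at 120 h and 376 and 398 at 168 h. Mbl2 dropped below every other group at 24 h and lay above both sham libraries at 4, 48, 72, 120 and 168 h, while Mbl1 was highest at 4 h and lowest at 48 h.

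For Mbl1 the change was log2 0.79 ± 0.15, edgeR adjusted p = 0.00111 at 4 h, and at 24 and 48 h it was not called (log2 0.36 and -0.40). For Mbl2 it was log2 -1.05 ± 0.12, edgeR adjusted p = 0.000209 at 24 h and log2 0.43 ± 0.12, edgeR adjusted p = 0.0144 at 48 h, the only rise called among the 37 genes at that time. The 48 h rise was lost without sham replicate 1 and without 48 h replicate 1, and the 24 h fall held without each library. Between 24 h and 4 h the log2 change of Mbl2 was -1.36. Per length, the ratio of Mbl2 to Mbl1 was 0.872 and 0.986 at 4 h, 0.483 and 0.498 at 24 h, 2.73 and 1.99 at 48 h and 1.75 and 1.61 at 168 h, against 1.22 and 1.39 in sham. The ratio spanned 5.65-fold over the 18 libraries, and no test was made on it: 2 libraries against 2 cannot pass an exact permutation test.

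**Figure D3:**
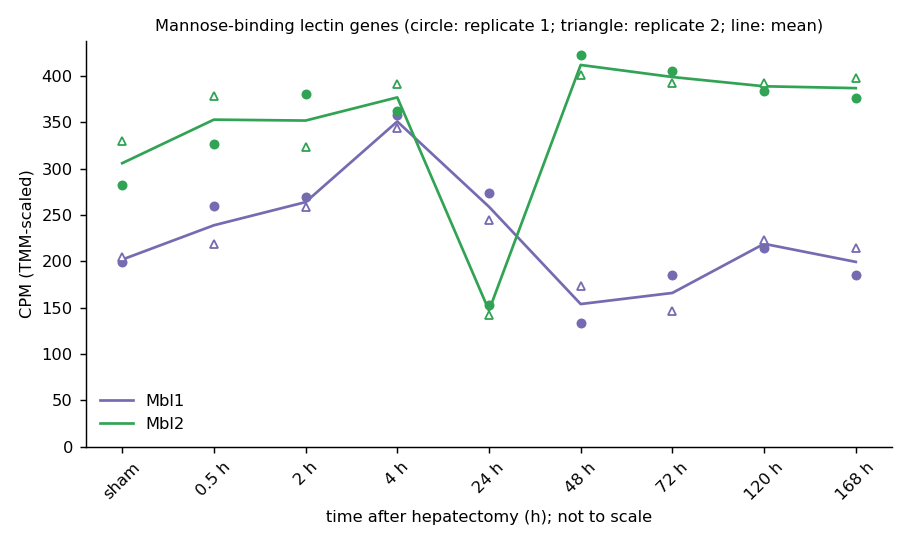
TMM-scaled CPM of Mbl1 and Mbl2 in every library, by group from sham to 168 h; symbols are single libraries and lines join the means of 2. Mbl2 lies at 153 and 142 CPM at 24 h, below Mbl1 at 274 and 245 CPM, and at 423 and 401 CPM at 48 h, above Mbl1 at 134 and 174 CPM; CPM does not correct for gene length, so the crossing of the lines is not a comparison of levels per length.

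C2 encodes the protease of the classical and lectin C3 convertase. C2 had 167 and 161 CPM in sham, 182 and 162 at 0.5 h, 136 and 165 at 2 h and 150.1 and 130.2 at 4 h; at 24 h it had 70.4 and 81.1 CPM, with 86.4 and 86.1 at 48 h, 91.4 and 89.5 at 72 h, 149 and 171 at 120 h and 139 and 147 at 168 h. The libraries at 24, 48 and 72 h all lay below those of the other groups. The fall was log2 -1.11 ± 0.13, edgeR adjusted p = 0.000209 at 24 h, -0.93 at 48 h and -0.86 at 72 h, and these 3 calls held under all alternatives and without each library. C2 had 159.7 ± 15.8 CPM at 120 h, against 164 ± 4.62 in sham. Cfb, its neighbour on chromosome 17 and its counterpart in the alternative route, was called against sham at no time (1281 ± 173 CPM at 24 h and 1362 ± 159 at 48 h, against 1540.0 ± 4.85 in sham).

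C3 had 24047 and 18501 CPM at 4 h, against 9755 and 12880.0 in sham, and was 1.88-fold higher (log2 0.91 ± 0.23, edgeR adjusted p = 0.00837). The call was lost without sham replicate 1, without 4 h replicate 1 and with unlisted genes taken as 0. C4b, a gene of the other part of the classical convertase, was called against sham at no time (1344 ± 360.0, 809 ± 157 and 776 ± 129 CPM at 4, 24 and 72 h, against 1110.0 ± 80.1 in sham). Masp2 fell at 24 and 48 h (log2 -0.48 and -0.43) and Masp1 at 48 h alone (log2 -0.55). The Masp2 calls at 24 and 48 h were kept in 15 and 14 of 18 fits without 1 library. At 24 h Masp1 had 92.4 ± 10.5 CPM, against 86.8 ± 1.28 in sham.

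All 6 terminal complement genes fell at 24, 48 and 72 h, while 0 of 6 were called at 0.5, 2, 4 or 120 h. The shares of all genes called lower were 9.46% at 24 h, 18.9% at 48 h and 6.42% at 72 h. At 168 h Hc, C8a and C9 were called lower, where 3.34% of all genes were. These 168 h calls were lost without any 1 of the sham or 168 h libraries. The 24 h call on C8a was kept under 5 of 10 alternatives and in 15 of 18 fits without 1 library. C6 and C9 encode components that join the pore, C9 forming its wall. C6 had 479.9 and 393 CPM in sham, 423 and 339.6 at 0.5 h, 383 and 516 at 2 h and 365 and 338 at 4 h; at 24 h it had 229.9 and 189 CPM, with 238 and 175 at 48 h, 212 and 136 at 72 h, 343 and 213 at 120 h and 318 and 270.0 at 168 h. C9 had 1279 and 1037 CPM in sham, 877 and 842 at 0.5 h, 1173 and 857 at 2 h and 1023 and 1065 at 4 h; at 24 h it had 766 and 508 CPM, with 475 and 449 at 48 h, 583 and 494 at 72 h, 787 and 606 at 120 h and 574 and 581 at 168 h. For both genes all libraries at 24, 48 and 72 h lay below both sham libraries. The changes of C6 were log2 -1.06 ± 0.26, edgeR adjusted p = 0.0139 at 24 h and log2 -1.32 ± 0.26, edgeR adjusted p = 0.00601 at 72 h. For C9 they were log2 -1.33 ± 0.20, edgeR adjusted p = 0.000532 at 48 h, and at 168 h the level was 0.50 of that in sham (adjusted p = 0.0217).

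Hc encodes C5, from which the pore starts and the anaphylatoxin C5a is cut. It averaged 1162 ± 129, 909 ± 9.45, 953 ± 113 and 1084 ± 14.1 CPM at 24, 48, 72 and 168 h, against 1753 ± 182 in sham (log2 -0.59, -0.95, -0.88 and -0.69). C8a, C8b and C8g encode the chains of C8. At 48 h they had 631 ± 2.02, 387 ± 41.0 and 23.0 ± 0.608 CPM, against 1316 ± 105, 872 ± 81.4 and 38.5 ± 0.855 in sham (log2 -1.06, -1.17 and -0.75). These 3 calls held under all alternatives and without each library.

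The C8 chains did not keep their proportions as closely as the fibrinogen chains. C8a and C8b are neighbours on chromosome 4. Their ratio in RPKM was 1.16 and 1.28 at 4 h and 0.736 and 0.732 at 168 h, against 0.921 and 0.939 in sham, a range of 1.74-fold over 18 libraries. That of C8g to C8b ranged 2.16-fold, from 0.0780 to 0.168. Much of this range lay between replicates of the same group, 0.0908 and 0.164 at 0.5 h and 0.0911 and 0.168 at 120 h. The ratio was 0.128 and 0.132 at 168 h, against 0.0874 and 0.103 in sham. C8g was at 38.8 ± 0.703 CPM at 168 h, against 38.5 ± 0.855 in sham (edgeR adjusted p = 0.967), while C8a was at 764 ± 4.18, against 1316 ± 105 (edgeR adjusted p = 0.0217).

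**Figure D4:**
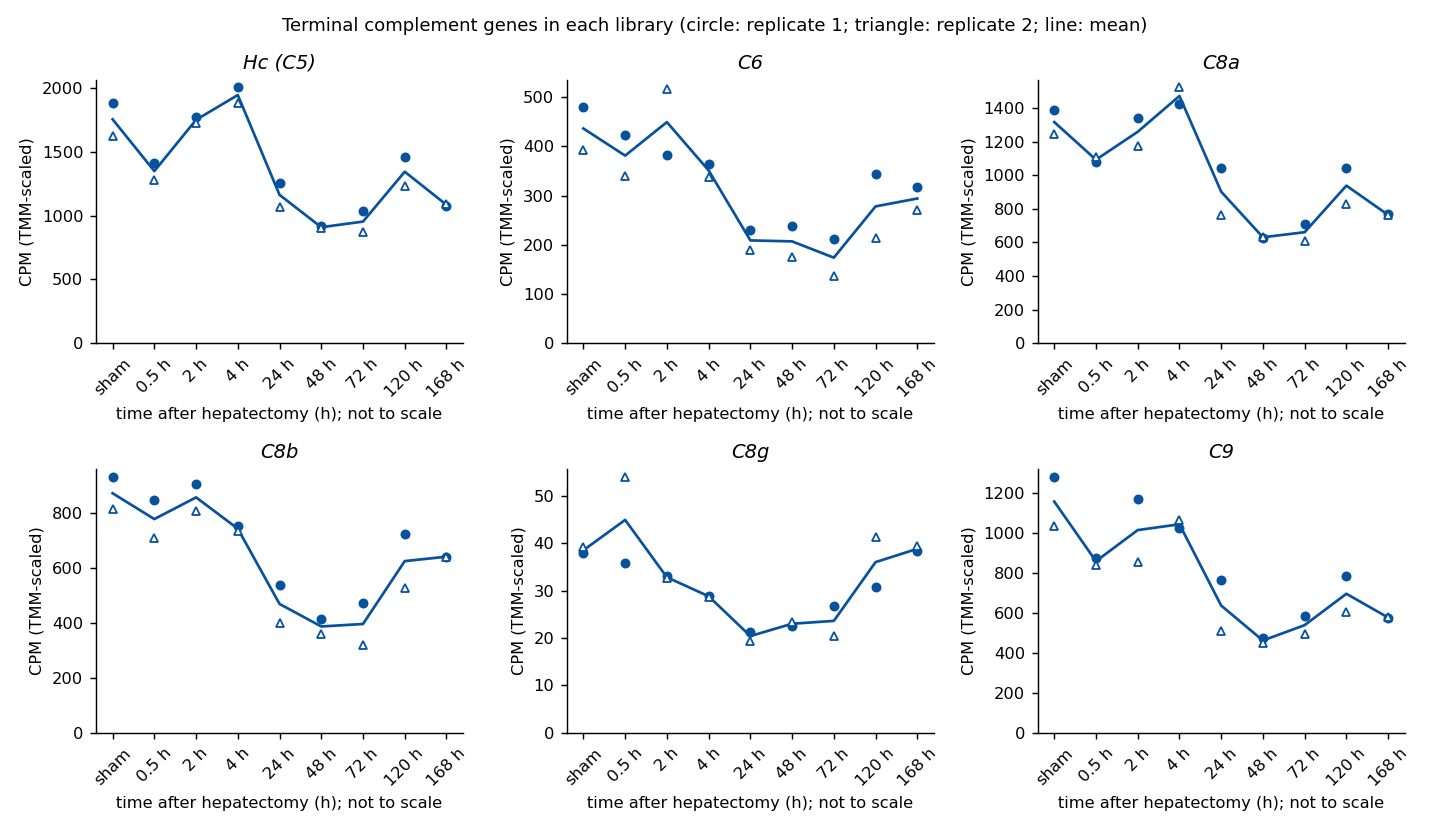
TMM-scaled CPM of the 6 terminal complement genes (1 panel each) in every library, by group from sham to 168 h; symbols are single libraries and lines join the means of 2. In each panel both libraries at 24, 48 and 72 h lie below both sham libraries, and at 168 h C8g overlaps the sham libraries while C9 is at 574 and 581 CPM, against 1279 and 1037 CPM in sham.

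All 3 complement regulators rose at 4 h, where 16.9% of all genes were called higher. Cfi encodes factor I, which cuts C3b and C4b, and Vtn encodes vitronectin, which keeps the terminal complex out of membranes. Cfi had 967 and 946 CPM in sham, 920.3 and 879 at 0.5 h, 1099 and 1123 at 2 h and 1286 and 1311 at 4 h; at 24 h it had 718 and 695 CPM, with 625 and 726 at 48 h, 858 and 757 at 72 h, 977 and 927 at 120 h and 877 and 883 at 168 h. Vtn had 3254 and 3659 CPM in sham, 4124 and 3920.0 at 0.5 h, 3546 and 4289 at 2 h and 5975 and 4271 at 4 h; at 24 h it had 2765 and 3689 CPM, with 2831 and 3333 at 48 h, 2881 and 2344 at 72 h, 3638 and 4242 at 120 h and 3543 and 3607 at 168 h. The 4 h libraries of Cfi lay above all others, whereas 1 of the 2 Vtn libraries at 4 h lay below 1 of the 2 h libraries. For Cfi the change was log2 0.44 ± 0.11, edgeR adjusted p = 0.00776 at 4 h, and it fell at 24 and 48 h (log2 -0.44 and -0.50). For Vtn it was log2 0.57 ± 0.19, edgeR adjusted p = 0.0352 at 4 h, a call lost without sham replicate 1, sham replicate 2 or 4 h replicate 1. C4bp, a cofactor of factor I, had 1062 ± 68.6 CPM at 4 h, against 667 ± 54.4 in sham (log2 0.67 ± 0.15, edgeR adjusted p = 0.00398). By totals alone none of the 3 was called at 4 h (log2 0.06 for Cfi, 0.19 for Vtn and 0.29 for C4bp).

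The rises at 4 h depended on scaling. By library totals alone 7 of the 37 genes were higher and 13 lower at 4 h, and by log2 RPKM 8 and 13, in place of 12 and 2, and by totals alone the median of all genes lay at -0.37. Fga, Fgb, Fgg, Cpb2, Pros1 and Mbl1 were higher under all alternatives tried, totals alone included, and without each library. Without sham replicate 1 the 14 calls became 10, as they did without sham replicate 2 and without 4 h replicate 1.

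The falls at 24 to 72 h depended on the libraries. The 20 calls at 24 h became 7 without sham replicate 1, 10 without sham replicate 2 and 9 without 24 h replicate 2. C2, Mbl2 and C8g held throughout. The 22 calls at 48 h became 14 without sham replicate 1 and 13 without 48 h replicate 1, and F9, Klkb1, Proc, C2, Hc, C8a, C8b, C8g and C9 held throughout. The 12 calls at 72 h became 5 without sham replicate 1, 7 without sham replicate 2 and 3 without 72 h replicate 2, and C2, Hc and C8a held throughout. The 5 calls at 168 h, F9, F11, Hc, C8a and C9, became 0 without any 1 of the sham or 168 h libraries and 3 without either 48 h library. Hepatocyte markers moved too at 24 h, when 3 of 6 were lower than sham, where 9.46% of all genes were. The median log2 change of the 6 was -0.49. In the 16 complete libraries, which hold 1 sham library, that median was -0.31. In the 18-library test the median of the 37 genes was -0.48. At 48 h and 72 h the marker medians were 0.05 and 0.41, and those of the 37 genes -0.50 and -0.39. The part of the marker change in the 24 h falls was not tested.

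**Figure D5:**
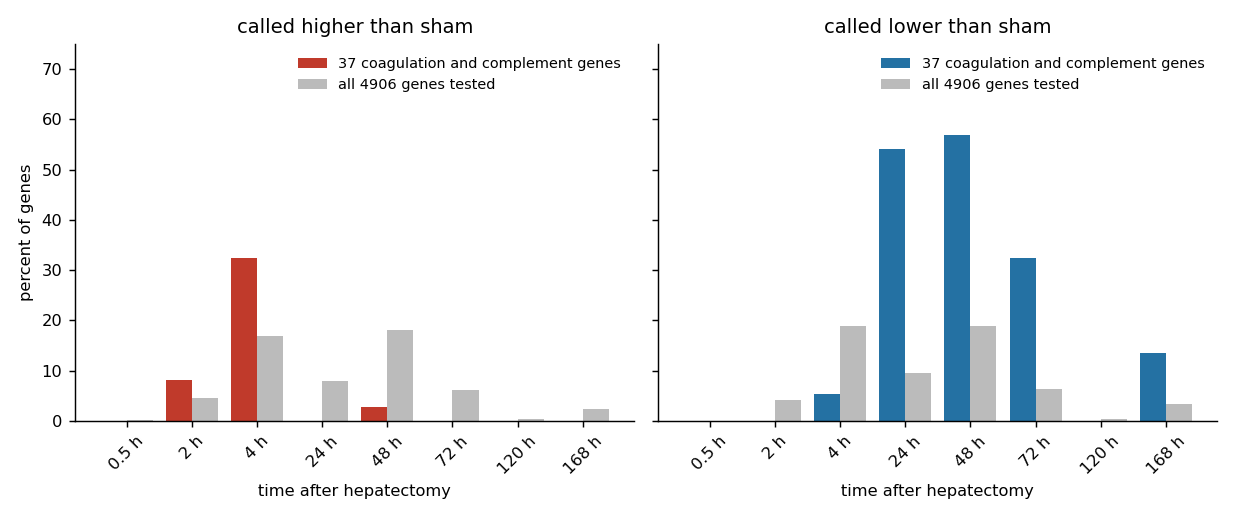
Percent of the 37 genes (coloured bars) and of all 4906 genes tested (grey bars) called higher (left) or lower (right) than sham at each time. At 24 h 54.1% of the 37 genes were lower, against 9.46% of all genes, and at 48 h 56.8%, against 18.9%.

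At 0.5 h no member was called (0 of 37 higher and 0 lower, where 0.163% and 0.0408% of all genes were); 3 genes, F9, Pros1 and Hc, had an unadjusted p under 0.05, all 3 lower, and DESeq2 called 0. At 120 h again 0 were called by edgeR (0.387% of all genes higher and 0.387% lower), with 9 genes at an unadjusted p under 0.05. DESeq2 called 3 lower at 120 h, and without either 24 h library edgeR called 2. C9 was at 696 ± 128 CPM and Klkb1 at 151 ± 21.4 CPM at 120 h, against 1158 ± 171 and 245 ± 8.13 in sham (adjusted p = 0.141 and adjusted p = 0.141).

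Comparisons between times were chosen with the course of these genes known: 4 h held the most highest and 48 h the most lowest group means. The direction of the counts that follow is therefore largely set by that choice, and they are a description. At 24 h against 4 h 0 of the 37 genes were higher and 29 lower, where 17.5% of all genes were higher and 17.0% lower. By totals alone, under which the median of all genes moved by 0.48, 3 were higher and 9 lower. Fga, Fgb, Fgg, Kng1, Pros1, Cpb2, C2, Mbl2 and Cfi were lower both ways. At 168 h against 48 h 12 were higher and 0 lower (11.5% and 9.32% of all genes): F2, F12, Kng1, Klkb1, Proc, Serpinc1, C2, C4b, Masp1, C8b, C8g and Cfi, with log2 changes of 0.38 for Cfi to 0.81 for Klkb1. Of these 12, 4 were kept without 48 h replicate 1, where 1 other gene was called lower, 2 without 48 h replicate 2, and 3 and 4 without 168 h replicate 1 and replicate 2, and Proc and C2 held throughout. Comparisons with sham share the same 2 sham libraries, and those between times share libraries with them.

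Other genes of the same pathways were read from 2 lists of 30. Of 17 other coagulation genes in the 18-library test, 6 were higher and 3 lower at 4 h, where 16.9% and 18.8% of all genes were. At 24 h 0 were higher and 5 lower (7.87% and 9.46% of all genes), and at 48 h also 0 and 5 (18% and 18.9%). A further 12 were scarce or unlisted in a short table and were tested in the 16 complete libraries, where sham had 1 library assumed to vary like the others. There 3 were higher and 1 lower at 4 h (7.22% and 8.25% of 12199 genes), 1 and 0 at 24 h (1.26% and 1.66%) and 2 and 1 at 48 h (7.66% and 7.25%). Thbd, the thrombomodulin gene of endothelium, had 125 and 68.0 CPM at 4 h, against 6.73 CPM in sham replicate 1 (adjusted p = 6.45e-05). It was unlisted in sham replicate 2, whose table ends at 6.49 CPM. Serpina10, which encodes the protein Z-dependent inhibitor, had 1329 and 1168 CPM at 4 h, against 291 and 326 in sham (log2 2.02 ± 0.31, edgeR adjusted p = 0.000235). Kng2 and Pzp also rose at 4 h (log2 1.15 and 0.86). Apoh, the gene of beta-2-glycoprotein I, fell at 48 h (log2 -0.77).

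Of 16 other complement genes in 18 libraries, 3 were higher and 1 lower at 4 h, where 16.9% and 18.8% of all genes were. At 24 h the counts were 0 and 5 (7.87% and 9.46% of all genes), at 48 h 0 and 8 (18% and 18.9%), and at 72 h 0 and 7 (6.16% and 6.42%). At 168 h 3 were higher and 2 lower (2.41% and 3.34%). In 16 libraries 8 more were tested, of which 1 was higher at 4 h (7.22% of all genes in that fit), 1 lower at 24 h (1.66%) and 1 lower at 48 h (7.25%). C1s1, a protease gene of the C1 complex, had 237 and 239 CPM at 48 h, against 416 and 411 in sham (log2 -0.80 ± 0.11, edgeR adjusted p = 0.000226). Also lower at 48 h were Cd59a, a membrane inhibitor of the pore (log2 -1.28), and the collectin gene Colec11 (log2 -1.30). Its partner Colec10, in 16 libraries, averaged 8.95 ± 1.53 CPM at 48 h (SD, n = 2), against 35.3 CPM in sham replicate 1 (adjusted p = 0.00103). In sham replicate 2, outside that fit, it was listed at 26.5 CPM before TMM scaling.

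Named after their values were seen, the 3 complement genes higher at 168 h were C1qb and C1qc, C1q chains made by macrophages (log2 1.20 and 1.14), and Cfp, the properdin gene (1.03). At 168 h 4 of the 5 Kupffer cell markers in the 18-library test were also higher, where 2.41% of all genes were. The median log2 change of the 5 was 1.32. In the 16 complete libraries, which hold 1 sham library, the median over all 6 markers was 1.19. All 6 summed to 878 and 1051 CPM, against 389.7 CPM in the complete sham table. Their part in the values of C1qb, C1qc and Cfp was not tested.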

How the data were processed

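Per the labels' protocols, RNA of 3 mice was mixed into each pool, 2 pools were made per time, and poly(A) RNA was fragmented, copied with random hexamers and amplified. The authors deposited, per the file headers, whole counts of uniquely mapped reads per gene with each library's total, and RPKM computed from them. The submitters' processing notes name the build mm10. No source used here names an aligner or a counting tool, or says whether strand was used.

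From the counts, levels were computed as CPM with TMM factors (0.765 to 1.16) and the header totals. Sums of cell type markers used the header totals alone. Differences were tested with edgeR 4.0.16 (quasi-likelihood, R 4.3.3) in 1 fit of all 9 groups, with 9 residual degrees of freedom, over the 4906 genes that neither short table lacks. Benjamini-Hochberg adjustment ran over all of them, with a threshold of 0.05. SE was derived from the fold change and its F statistic. Genes outside that test were fitted in the 16 complete libraries. A gene unlisted in a short table was taken as unknown and in a complete table as 0. No member lay outside the 18-library test (0 of 37). The tests were checked on simulated counts.

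The alternatives were DESeq2 1.42.0, limma-trend (limma 3.58.1), RLE size factors, library totals alone, log2(RPKM + 1), no filter on low counts, 16 libraries, unlisted genes as 0, a replicate block, the compared groups alone, and each library left out. The filter on low counts removed none of the 4906 genes, so the fit with no filter repeats the main fit and could lose no call. Levels in every library are given for the fibrinogen genes and for the 2 or 3 genes of each other role with the widest span of group means. Up to 6 other genes of each pathway list are named, smallest p first. Some of the genes that this rule picks are not reported here. The members, lists and naming rule were chosen with earlier results of these data known.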

Additional observations from a re-analysis of the deposited data

How the results depend on the processing

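Of 117 calls on single genes, the direction and call were kept for 117 by DESeq2, 116 by limma-trend, 114 with RLE size factors, 117 with no filter on low counts, 115 with the replicate block, 83 with unlisted genes as 0, 81 in fits of the 2 groups alone, 79 by log2 RPKM, 78 by totals alone and 71 in 16 libraries. The count with no filter on low counts was fixed in advance, since that filter removed no gene and the fit repeats the main one. At 24 h against 4 h, 3 genes reversed by totals alone and by log2 RPKM. They were Masp2 (0.10 and 0.09), Mbl1 (0.06 and 0.05) and Proc (0.05 and 0.05). In that comparison the median of all genes was 0.48 by totals alone. The 29 calls of that comparison became 12 by totals alone, 12 by log2 RPKM and 14 with the 2 groups alone. In 16 libraries the calls numbered 0 in place of 3 at 2 h, 6 in place of 20 at 24 h, 13 in place of 22 at 48 h, 7 in place of 12 at 72 h and 0 in place of 5 at 168 h; those fits have 1 sham library. With unlisted genes as 0 they numbered 0 at 2 h, 0 at 168 h and 6 in place of 12 at 168 h against 48 h. With the 2 groups alone they numbered 4 at 24 h and 9 at 168 h. At 120 h DESeq2 called 3 and the replicate block 1, in place of 0. The cause of these changes was not tested. Leaving out 1 library gave 0 to 3 calls at 2 h, 10 to 14 at 4 h, 7 to 20 at 24 h, 13 to 23 at 48 h, 3 to 14 at 72 h, 0 to 2 at 120 h, 0 to 6 at 168 h, 20 to 30 at 24 h against 4 h and 2 to 12 at 168 h against 48 h. No pairing by replicate number common to the groups was seen. Deviations of same-numbered libraries correlated at -0.55 to 0.53 over 36 pairs of groups, with a median of 0.04 and 14 over 0.1. These correlations cannot exclude a batch shared by some of the groups.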
